A study of Mus musculus with 9 samples.

Results

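Among chromatin regions that differed in accessibility after ammonium acetate, 15 lay at genes whose names mark them as ubiquitin-conjugating enzymes, ubiquitin ligases and their adaptors, deubiquitinases or proteasome subunits. The members were every gene in the 3 lists deposited by the authors whose symbol begins with 1 of 17 family prefixes (Trim, Fbxo, Fbxl, Fbxw, Usp, Ube2, Ube3, Ube4, Rnf, Psm, Cul, Klhl, Asb, March, Herc, Nedd4 and Otud) followed by a digit or letter. They were 15 of the 1052 genes and 15 of the 1832 regions in the lists, 1 region for each gene. Because a region is listed only if it passed the authors' limits, every member had a small raw p by construction. An interval that leaves out 0 follows from that. The limits also bear on size, at least 1.5-fold in 2 of the lists, and on the adjusted p, below 0.05 in the other list. They set neither the sign nor the location of a region.

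The study measured chromatin accessibility by ATAC-seq, which reads out where a transposase can insert into DNA, in differentiated C2C12 cells, mouse myoblasts that fuse into multinucleate myotubes in low serum. The groups were myotubes given 10 mM ammonium acetate for 3 h, myotubes given 10 mM for 24 h, and untreated myotubes, with 3 libraries described as biological replicates in each of the 3 groups. All 9 libraries come from 1 cell line. No group received acetate alone, and no time is given for the untreated cultures, so ammonium, acetate and time in culture cannot be told apart. The lists compare 3 h with untreated, 24 h with untreated and 24 h with 3 h. The files hold no values for single libraries, so each region is given by its log2 fold change with an approximate standard error (SE) derived from the F statistic in the authors' deposited table. That error is where the spread between replicates enters. Depth per library is unknown here. Myotube identity could not be checked from the files either: of 14 myotube markers, 5 myoblast or reserve cell markers and 6 fibroblast markers, only Pax7 had a listed region, and absence from a list says nothing of openness.

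Ubiquitin is activated by an E1 enzyme, passed to an E2 conjugating enzyme and attached to a protein by an E3 ligase, which picks the substrate. RING ligases, among them most Trim, Rnf and March proteins, bring the E2 to the substrate directly, whereas cullin ligases use exchangeable adaptors such as F-box (Fbxl, Fbxo, Fbxw), Klhl and Asb proteins. Deubiquitinases remove the tag, and the proteasome degrades tagged proteins. In skeletal muscle the pathway is best known for protein loss in atrophy, in which the ligases Trim63 (MuRF1) and Fbxo32 (atrogin-1) are induced.

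RefSeq (GRCm38.p6) holds 471 protein-coding genes that match the prefixes, and 15 of them (3.18%) had a region in any of the lists, against 4.42% of all 21900 protein-coding genes. By list, the share was 0.637% of members against 1.51% of all genes at 3 h against untreated, 0.425% against 0.311% at 24 h against untreated, and 2.55% against 3.11% at 24 h against 3 h. The members' share lay below that of all genes in 2 lists and above it in the third, and the differences were not tested. The members with a region were long, with a median length of 67759 bp against 24573 bp for those without. All protein-coding genes with a listed region also had a longer median length (61034 bp) than those without (16352 bp). Per prefix, 4 of 18 Fbxl genes, 4 of 85 Rnf genes, 2 of 51 Psm genes, 1 of 36 Fbxo genes, 1 of 37 Klhl genes, 1 of 37 Ube2 genes, 1 of 57 Usp genes and 1 of 70 Trim genes had a region. The other 9 prefixes, with 80 genes among them, had 0. Of 10 members known from work on muscle (Trim63, Fbxo32, Fbxo30, Trim32, Fbxo40, Klhl40, Klhl41, Asb2, Usp14 and Usp19), named here for their background and not for their values, 0 had a listed region. Whether their regions were tested cannot be told from the lists.

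After 24 h against untreated myotubes, accessibility fell in an intron of Fbxl13 and rose upstream of Rnf141. These 2 of the 471 genes that match the prefixes (0.425%) had a region past the adjusted threshold, against 0.311% of all protein-coding genes. Of the 146047 tested regions 0.103% passed, a share of regions that cannot be set beside a share of genes. Of the 150 regions in that list 44.7% were higher and 55.3% lower. Fbxl13 encodes an F-box protein with leucine-rich repeats, a substrate adaptor of cullin ligases. Rnf141 encodes a RING finger protein first described in testis.

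The Fbxl13 region (mm10 chr5:21505137-21505555, 419 bp) lies in a single intron of 21546 bp shared by both annotated transcripts, 140259 bp downstream of the nearest transcript start. It had a log2 fold change of -1.15 ± 0.20 (SE; 95% interval -1.57 to -0.72) at 24 h against untreated in the authors' deposited table (edgeR, Benjamini-Hochberg adjusted p = 0.0298). Accessibility was thus 2.21-fold lower after 24 h. At 3 h against untreated the same region had a log2 fold change of -0.75 ± 0.20 (-1.16 to -0.35) in the authors' deposited table, but its adjusted p of 0.880 did not pass. Both comparisons use the same untreated libraries. The region is absent from the list of 24 h against 3 h, and the difference of the other comparisons puts its log2 fold change there at -0.39, under the fold limit of that list. Its mean log2 CPM (CPM, counts scaled to library size and averaged by the authors) was 2.67.

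The Rnf141 region (mm10 chr7:110848414-110848793, 380 bp) lies between genes, 1 to 5 kb upstream of 6 annotated Rnf141 transcripts, with its centre 4146 bp before the nearest start. It had a log2 fold change of 1.31 ± 0.26 (SE; 0.77 to 1.85), a 2.48-fold rise, at 24 h against untreated in the authors' deposited table (edgeR, Benjamini-Hochberg adjusted p = 0.0499). By p it stood last of the 150 regions in that list, just inside the threshold of 0.05, whereas Fbxl13 stood at place 61. At 24 h against 3 h the log2 fold change was 1.08 ± 0.26 (0.54 to 1.62) in the authors' deposited table, with an adjusted p of 0.346 that did not pass. The 24 h libraries are common to both comparisons. The difference of these values puts the log2 fold change at 3 h against untreated at 0.23. By RefSeq the body of Lyve1, a hyaluronan receptor gene, lies 1814 bp from the region, nearer than Rnf141, so the gene concerned cannot be told from position. The region was thinly covered, with a mean log2 CPM of 1.39 against a median of 2.905 in the 24 h list. In the list of 24 h against 3 h another region, at Ampd3, lay 67474 bp away with a log2 fold change of 0.79, and every other member was at least 116680 bp from its nearest neighbour in the same list.

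**Figure D1:**
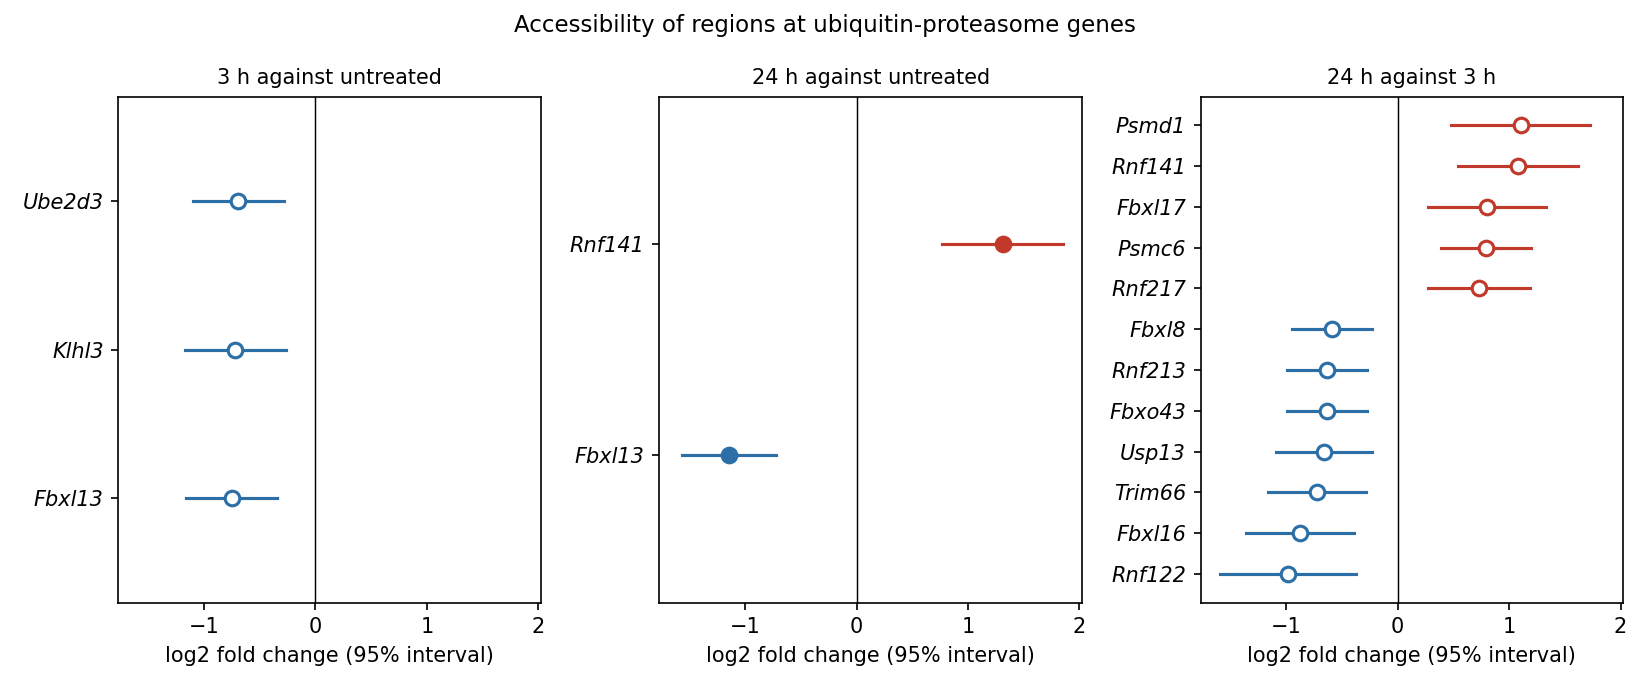
Log2 fold change of each member region (points) with its approximate 95% interval (lines) in the 3 comparisons; filled points have an adjusted p below 0.05, open points do not, red is higher and blue lower in the group named first. Filled points are seen for Rnf141 (1.31) and Fbxl13 (-1.15) at 24 h against untreated only, and the open points of 24 h against 3 h run from -0.99 to 1.10.

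The 250 bases before 1 annotated start each of Fbxl13 and Rnf141, the genes that passed, and of Psmc6 and Psmd1, the proteasome genes described further on, are shown from RefSeq (GRCm38.p6) because the lists attach their regions to these genes. The 5′ ends of Fbxl13 (21645698) and Rnf141 (110844452) as genes fall inside their windows, so part of each of these windows lies within the gene. None of the 4 windows lies inside a listed region: the gap from window to region is 140050 bp for Fbxl13, 3782 bp for Rnf141, 3694 bp for Psmc6 and 61426 bp for Psmd1. The windows are chr5:21645606-21645855 (minus strand), chr7:110844382-110844631 (minus), chr14:45329574-45329823 (plus) and chr1:86064369-86064618 (plus), each written 5′ to 3′ on the strand of its gene. Capitals mark matches on either strand to TGANNNNGC, a string that takes in the core of the antioxidant response element but is less strict than it.
Fbxl13: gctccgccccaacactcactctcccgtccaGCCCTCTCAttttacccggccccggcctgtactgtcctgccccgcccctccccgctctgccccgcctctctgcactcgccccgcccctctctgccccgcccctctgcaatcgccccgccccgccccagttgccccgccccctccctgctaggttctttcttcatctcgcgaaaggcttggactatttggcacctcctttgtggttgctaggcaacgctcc
Rnf141: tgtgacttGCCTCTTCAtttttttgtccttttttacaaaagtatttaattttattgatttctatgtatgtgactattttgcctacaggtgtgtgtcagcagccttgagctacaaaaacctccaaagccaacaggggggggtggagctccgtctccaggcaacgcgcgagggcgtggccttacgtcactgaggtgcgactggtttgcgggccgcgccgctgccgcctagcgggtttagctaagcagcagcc
Psmc6: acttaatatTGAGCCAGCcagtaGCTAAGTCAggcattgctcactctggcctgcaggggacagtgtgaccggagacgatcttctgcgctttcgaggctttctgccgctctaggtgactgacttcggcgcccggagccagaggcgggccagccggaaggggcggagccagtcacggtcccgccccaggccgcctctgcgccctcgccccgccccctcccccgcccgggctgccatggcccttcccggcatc
Psmd1: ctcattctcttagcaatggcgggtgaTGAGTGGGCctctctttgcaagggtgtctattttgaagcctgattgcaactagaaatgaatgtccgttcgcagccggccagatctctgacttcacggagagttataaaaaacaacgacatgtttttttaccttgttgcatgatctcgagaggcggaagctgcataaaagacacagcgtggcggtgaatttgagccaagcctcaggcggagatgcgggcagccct
Psmc6 has 2 matches and the others 1 each. The windows of Psmc6 and Fbxl13 are rich in G and C (68% and 67.6%) and hold 20 and 17 CpG dinucleotides, against 13 for Rnf141 (51.6%) and 12 for Psmd1 (49.6%).

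RefSeq promoters matched 12 of the 15 members, with 15 windows in all. Fbxl8, Fbxo43 and Rnf122 had no entry. Of the 15 windows 0 overlapped a member region, so the shares that follow do not describe the sequence of the listed regions. Of these 15 windows, 8 hold TGANNNNGC (53.3%), which 35.2% of 32851 windows of all genes hold. The letters CANNTG, the E-box bound by myogenic factors, stand in 8 of 15 windows (53.3%) and in 66.2% of all. CCAAT, the NF-Y box, stands in 4 of 15 (26.7%) and in 33.8% of all. TGANTCA (AP-1), GTAAACA (forkhead), TGATGNAA (ATF4) and TGCGCANGC (nuclear respiratory factor 1) stand in 0 of 15, and in 6.75%, 3.17%, 3.45% and 3.45% of all windows. Both strands were searched, and the letters of TGANTCA and TGANNNNGC can overlap. Windows of 1 gene with several starts overlap, and a match is a string of letters, not a bound site.

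After 3 h against untreated myotubes, the 3 member regions listed, at Fbxl13, Ube2d3 and Klhl3, all had lower accessibility, but none passed the adjusted threshold. They were 3 of the 588 regions listed, and 0.403% of all tested regions were listed in that comparison. How many tested regions lay at members is not known, so the matching share of members cannot be given. Of the 588 listed regions 55.6% were higher and 44.4% lower. The direction of the 3 members was not tested against this. It depends on how regions are assigned to genes: with RefSeq genes within 5 kb, 6 member regions were listed, 3 of them higher, with a median log2 fold change of -0.0087 in place of -0.72. Adjusted p ranged from 0.880 to 0.9999 (edgeR), and of all tested regions 0.000685% had an adjusted p below 0.05.

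Ube2d3 encodes an E2 enzyme that works with many RING ligases. Its region (mm10 chr3:135440141-135440454, 314 bp) lies at the start of a long intron, 1172 bp after the nearest Ube2d3 start and in the shore of a CpG island. Its log2 fold change was -0.69 ± 0.20 (-1.10 to -0.28) in the authors' deposited table (adjusted p = 0.996, edgeR). The files also place this region 1 to 5 kb upstream of the divergent transcript 4930539J05Rik, and they annotate an exon there that is not one of Ube2d3. The gene concerned thus cannot be told from position.

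Klhl3 encodes the adaptor through which the cullin Cul3 marks WNK kinases for degradation. Its region (mm10 chr13:58065083-58065988, 906 bp) lies in an intron of 7696 bp, 48112 bp from the nearest start. The log2 fold change there was -0.72 ± 0.22 (-1.17 to -0.27) in the authors' deposited table (adjusted p = 0.9999, edgeR). Neither region is in the 24 h list, so neither had an adjusted p below 0.05 at 24 h. The log2 fold change of the 3 regions spanned -0.75 to -0.69, a width well inside 1 SE of any of them, so their sizes do not differ beyond their error.

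Between 24 h and 3 h, 12 member regions were listed, 5 higher and 7 lower at 24 h. Of all tested regions 0.86% were listed, and the matching share of tested member regions is not known. None passed the adjusted threshold (edgeR, adjusted p from 0.346 to 0.514), and 0 of all 1256 listed regions did, although each has a raw p below 0.005. Of the members 41.7% were higher (95% Clopper-Pearson interval 15.2 to 72.3), against 55.2% of all listed regions (44.8% were lower), which lies inside that interval. The median absolute log2 fold change was 0.76 for the members and 0.80 for the whole list. The values that follow are descriptions of single regions.

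Both proteasome members had higher accessibility at 24 h than at 3 h. Psmc6 (Rpt4) is an ATPase and Psmd1 (Rpn2) a large scaffold subunit of the regulatory particle that receives tagged proteins. The Psmc6 region (mm10 chr14:45325425-45325879) lies 4136 bp before the nearest start and had a log2 fold change of 0.79 ± 0.19 (0.39 to 1.20) in the authors' deposited table (adjusted p = 0.358, edgeR). The Psmd1 region (mm10 chr1:86126045-86126372) lies far inside the gene, in an intron of 7829 bp at 82.5% of the gene's length from its 5′ end, and 1658 bp before the start of a short internal transcript. At this region the log2 fold change was 1.10 ± 0.30 (0.48 to 1.73) in the authors' deposited table (adjusted p = 0.417, edgeR). The intervals of these regions overlap widely. Psmd1 had the lowest coverage of any member, a mean log2 CPM of 1.17, whereas Psmc6 had 2.96. The other 49 Psm genes had no listed region. Of all Psm genes 3.92% had one in any list, against 4.42% of all protein-coding genes.

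Of the Rnf and Trim genes, Rnf141 and Rnf217 had higher values at 24 h than at 3 h, and Rnf122, Rnf213 and Trim66 lower ones. Rnf217 encodes a RING-between-RING ligase that acts on the iron exporter ferroportin in mice. Its region (mm10 chr10:31532858-31533273) sits in an intron of 17114 bp and had a log2 fold change of 0.73 ± 0.22 (0.27 to 1.19) in the authors' deposited table (adjusted p = 0.484, edgeR). Rnf213 encodes a very large protein that joins a RING domain to ATPase modules and is linked to the blood vessel disorder moyamoya disease in human. Its region (mm10 chr11:119392936-119393647) covers the promoter and first exon of 2 transcripts, 3342 bp inside the 5′ end of the gene. The log2 fold change there was -0.64 ± 0.17 (-0.995 to -0.277) in the authors' deposited table (adjusted p = 0.417, edgeR).

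Rnf122 encodes a small RING ligase with a membrane-spanning segment. Its region (mm10 chr8:31114295-31114536), the narrowest of the members at 242 bp, lies in an intron 2588 bp after the start. A log2 fold change of -0.99 ± 0.29 (-1.60 to -0.38) was given for it in the authors' deposited table (adjusted p = 0.469, edgeR). Trim66 belongs to the TIF1 group of Trim proteins, which bind chromatin. Its region (mm10 chr7:109480705-109481277) spans an internal exon and both neighbouring introns, 27143 bp from the nearest start, and had a log2 fold change of -0.73 ± 0.21 (-1.17 to -0.29) in the authors' deposited table (adjusted p = 0.464, edgeR).

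Of the F-box genes, Fbxl17 was higher at 24 h than at 3 h, and Fbxl16, Fbxo43 and Fbxl8 were lower. Fbxl17 encodes the adaptor that recognises wrongly paired BTB-domain proteins. Its region (mm10 chr17:63303918-63304446) lies in an intron of 131646 bp, 196398 bp from the nearest start, the most distant of all members. Its log2 fold change was 0.80 ± 0.25 (0.27 to 1.33) in the authors' deposited table (adjusted p = 0.514, edgeR). The Fbxl16 region (mm10 chr17:25813485-25813912) overlaps a CpG island inside an intron, 2620 bp before the start of an internal transcript. The log2 fold change was -0.88 ± 0.23 (-1.36 to -0.39) in the authors' deposited table (adjusted p = 0.402, edgeR).

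Fbxo43 encodes Emi2, which inhibits the anaphase-promoting complex and holds oocytes in meiotic arrest. Its region (mm10 chr15:36164436-36165244) covers a CpG island and the promoter and first exon, with 5′ UTR, at an annotated start of the gene. That start is internal, as the centre of the region lies 5100 bp inside the 5′ end of the gene. The region also carries an upstream label (1 to 5 kb) that is not one of Fbxo43. The log2 fold change there was -0.64 ± 0.17 (-0.997 to -0.280) in the authors' deposited table (adjusted p = 0.413, edgeR). The Fbxl8 region (mm10 chr8:105264110-105265494) is the widest of the members at 1385 bp. It covers a CpG island between the head-to-head starts of Fbxl8 and Tradd, the adaptor of a tumour necrosis factor receptor, and part of it is also annotated as upstream of Hsf4. Accessibility differed by a log2 fold change of -0.59 ± 0.17 (-0.95 to -0.23) in the authors' deposited table (adjusted p = 0.464, edgeR), close to the 1.5-fold limit of the list. Its change cannot be assigned to 1 of these genes.

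The deubiquitinase member was Usp13, which in human cells acts on Beclin 1. Its region (mm10 chr3:32818432-32818860) lies in an intron and in the shore of a CpG island, 1020 bp after the nearest start. Its log2 fold change was -0.66 ± 0.21 (-1.09 to -0.23) in the authors' deposited table (adjusted p = 0.514, edgeR).

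By annotation, promoters and CpG islands stood among the lower member regions of this comparison more than among the higher ones, a difference that was not tested. Of the 7 lower member regions, 3 (Fbxo43, Rnf213 and Fbxl8) lay in promoters and held a transcript start, against 24.7% of all lower regions in promoters. Of the 5 higher member regions 0 lay in promoters, against 5.34% of all higher regions. A CpG island, shore or shelf was annotated at 6 of the 7 lower regions and at 2 of the 5 higher ones, against 27.7% and 3.61% of the list. With 12 regions these shares have wide intervals: 9.90 to 81.6% for the promoter share of the lower members (Clopper-Pearson), which holds the 24.7% of the list. The intervals of the CpG shares, 42.1 to 99.6% for the lower members and 5.27 to 85.3% for the higher ones, lie above the shares of the list. The sets are not alike, however. Members are picked by gene, and 0 of them were annotated as intergenic, against 25.0% of all lower and 42.7% of all higher regions. Shares among listed regions with a gene annotation only were not computed, so no conclusion on members is drawn.

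**Figure D2:**
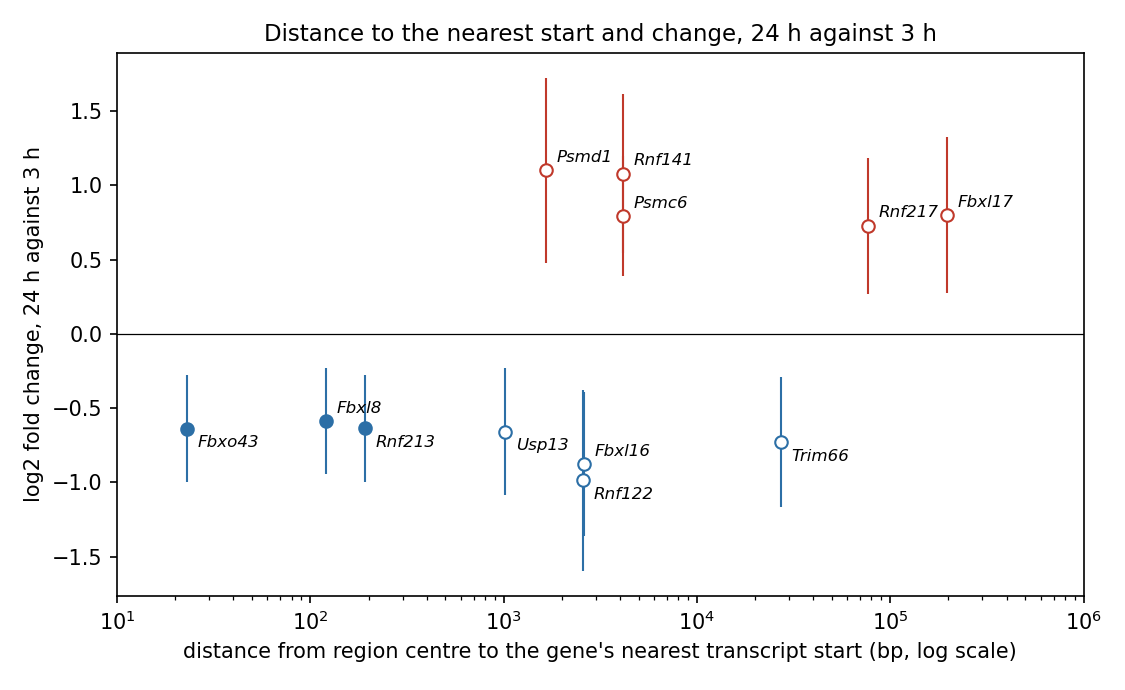
Log2 fold change at 24 h against 3 h (vertical axis, bars are approximate 95% intervals) by the distance from the centre of each region to the nearest transcript start of its gene (horizontal axis, bp, log scale); filled points are regions that hold a start. The 3 filled points, Fbxo43, Fbxl8 and Rnf213, lie within 192 bp of a start and below 0, and the higher regions lie 1658 bp or more from one.

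Absolute log2 fold changes were larger where coverage was lower. The members with the largest absolute log2 fold change between 24 h and 3 h, Psmd1, Rnf141 and Rnf122, had the lowest mean log2 CPM (1.17, 1.39 and 1.35) and the widest SE of the members (0.30, 0.26 and 0.29). The promoter regions of Fbxl8, Rnf213 and Fbxo43 had the highest mean log2 CPM (3.91, 3.84 and 3.27) and the smallest SE (0.17 each), with absolute log2 fold changes from 0.59 to 0.64. In the whole list the median absolute log2 fold change was 0.96 for the 628 regions below the list's median coverage and 0.69 for the other 628. A list limited by raw p holds only larger differences where the SE is wide, so these sizes depend on coverage by construction.

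**Figure D3:**
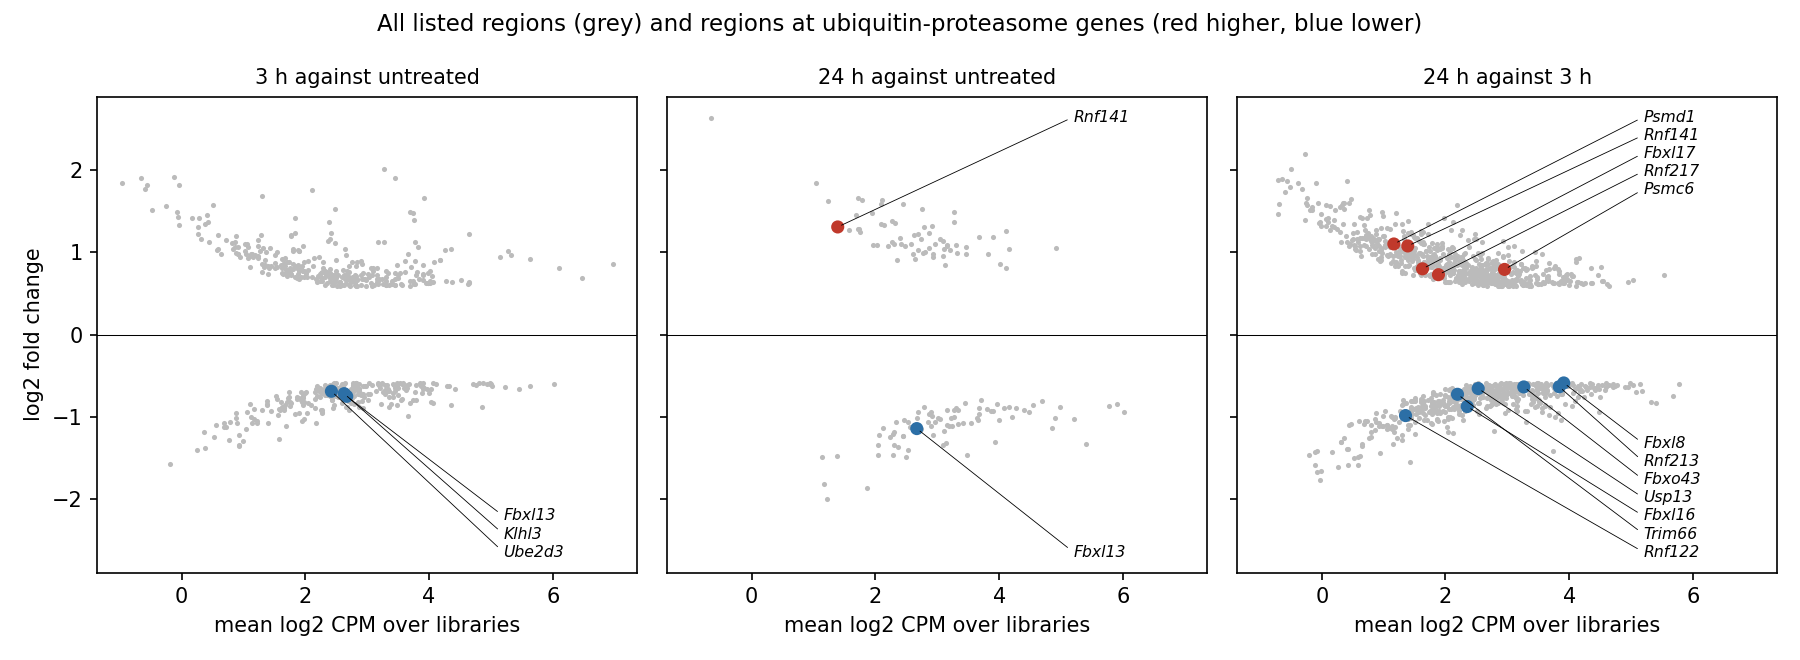
Log2 fold change (vertical axis) by mean log2 CPM over the libraries (horizontal axis) for all listed regions (grey) and member regions (red higher, blue lower, named) in the 3 comparisons. Members lie within the cloud of listed regions, and the grey points fan out to larger changes at low coverage; the empty band around 0 is where no region was listed.

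Other genes of the pathway were taken from 6 lists of 149 genes whose symbols lack these prefixes. Of the 149 genes, 6 had a region in any of the authors' lists, against 4.42% of all 21900 protein-coding genes, a difference that was not tested. Of these 6 genes 3 are described here. At 3 h against untreated the authors' deposited table gave a log2 fold change of 0.88 for Fzr1, an activator of the anaphase-promoting complex (at a region shared with Mfsd12), and -0.67 for the deubiquitinase gene Stambpl1, neither of which passed (adjusted p = 0.345 and 0.9999, edgeR). At 24 h against 3 h it gave -0.66 for the RING ligase gene Znrf1, which did not pass either (adjusted p = 0.391, edgeR). The lists of proteasome assembly and shuttling genes (16) and of the SUMO and NEDD8 pathways (20) had 0. Both are short beside the 4.42% of all genes, so a count of 0 is not read as a result.

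When RefSeq genes within 5 kb of a region were counted in place of the annotation in the files, 4 more members gained a region, of which Klhl26, Usp20 and Trim62 are described here. At 3 h against untreated the authors' deposited table gave a log2 fold change of 0.67 ± 0.18 for a region 1622 bp from Klhl26 and 0.75 ± 0.21 for one 3991 bp from Usp20, a region the files assign to Fnbp1 (adjusted p = 0.947 and 0.990, edgeR). At 24 h against 3 h a region 2504 bp from Trim62 had a log2 fold change of -1.40 ± 0.40 in the authors' deposited table (adjusted p = 0.453, edgeR) at a low mean log2 CPM of 0.40.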

How the data were processed

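Per the labels' protocols, libraries were prepared by Omni-ATAC from frozen cell pellets. Per the submitters' processing notes reads were handled with Bowtie2 2.3.4.1, cutadapt 1.15 and Trim Galore 0.4.5, and MACS2, edgeR, bedtools, Picard 2.20.2 and quality tools are also named; the build is mm10. Settings, a transposase offset and the pooling of libraries for peak calls are not stated there.

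For each comparison the authors deposited a table with a line per region and annotation, collapsed here to 1 entry per region. The log2 fold change and mean log2 CPM are the authors' values. The p-value and Benjamini-Hochberg adjusted p-value are those the authors deposited, and the F statistic is a score in the same deposited tables. By their values the lists hold regions at least 1.5-fold apart at a raw p under 0.005 (3 h against untreated, 24 h against 3 h) or adjusted p below 0.05 (24 h against untreated), so their lengths are not comparable. Adjusted p and rank give 146047 tested regions. SE is the size of the log2 fold change divided by the root of F. The 95% intervals use a t distribution with the 21.5 degrees of freedom that F and p imply. Simulated data were used to check the recovery of the number of tested regions and the arithmetic of the SE, but not the degrees of freedom or the intervals. A missing fold change is the difference of the other comparisons, which add up exactly in the 3 regions present in all lists. No test was added, because no values per library are given.

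All members with a region in the files' annotation are named; other pathway genes and neighbours with one are named in part, and the rest are not reported here. Members and lists were chosen with earlier results of these data known. Alternatives were a 5 kb gene assignment, other p, fold and coverage limits, 1 region per gene, leaving out genes of other ubiquitin-like modifiers, and other overlap rules. Scripts ran on Python 3.11.15 with scipy 1.17.1, pandas 2.3.3, numpy 2.4.6 and matplotlib 3.10.9.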

Additional observations from a re-analysis of the deposited data

How the results depend on the processing

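The coverage limit, 1 region per gene and leaving out other ubiquitin-like modifiers removed no member region, so they could change nothing. The number of member regions at 3 h against untreated, 3 as listed, was 6 with genes within 5 kb, and 0 at the raw p limit of the 24 h list (5.13e-05), at an adjusted p below 0.05, or at 2-fold or more. With the 5 kb assignment 3 of those 6 were higher, against 0 of 3 as listed, and the median log2 fold change at 3 h was -0.0087 in place of -0.72. The member regions at 24 h against 3 h, 12 as listed with 5 higher, were 0 with 0 higher at the common p limit and at an adjusted p below 0.05. At 2-fold or more they were 2, both higher (Psmd1 and Rnf141), and the median was 1.09 in place of -0.61. That follows from which regions are left. The 2 members at 24 h against untreated remained under each alternative, by construction for both p limits. Medians under an alternative with 0 regions could not be given. No paired analysis was possible because the lists carry no values for single libraries, and for the same reason no replicate could be left out. Approximate errors rest on the authors' edgeR fit, and depth per library, which limits the thinly covered regions, is unknown.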
